A study of Mus musculus with 3 samples.

Results

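Gene expression in cultured mouse cerebral cells was compared between 1 array of cells given the drug valproate and 1 array of cells given only its solvent, dimethyl sulfoxide (DMSO). C57BL6/J mice supplied the cells, taken from the cerebrum at embryonic day 18 and kept in neurobasal medium with B27 supplement. Treatment began on day 10 in vitro and lasted 24 h. The valproate culture received 1 mM valproate with 0.1% DMSO and the control culture 0.1% DMSO. A further culture, given 100 µM lamotrigine with 0.1% DMSO, supplies the remaining array, whose values stand beside most results. The labels give no genetic change in these animals and do not say how many embryos or cultures stood behind each RNA sample. The comparison takes 2 of the 3 arrays of the series and every probe that is not a control. It covers 22328 genes, of which 14346 were detected on both arrays, meaning that most spots of the gene's probe were well above background. With 1 array per treatment the differences have no replicate check and no test was possible, so a value is called higher or lower only as a description of these arrays. In such bulk RNA, fewer cells of a type and less RNA per cell cannot be told apart.

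Valproate is a branched short-chain fatty acid used against epilepsy and in bipolar disorder. Among other actions it inhibits class I histone deacetylases, the enzymes that take acetyl groups off histone tails, and histone acetylation generally marks open, transcribed chromatin. Lamotrigine is an antiepileptic drug that acts mainly on voltage-gated sodium channels. Cerebral cultures of this age hold neurons, astrocytes and their progenitors, and can hold oligodendrocyte precursors, ependymal cells with beating cilia, microglia, and cells of vessels and meninges.

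Each level is a scaled signal, set so that an array's 75th percentile is 100. Differences are given as log2 of valproate over DMSO, so that 1 is 2-fold. Where 3 signals follow each other they stand in the order valproate, DMSO, lamotrigine, and the log2 difference between valproate and DMSO follows in parentheses. Among the 14346 genes, valproate gave at least 2-fold more signal for 300 (2.09%) and at least 2-fold less for 203 (1.42%), so that 503 (3.51%) were apart. The median difference was -0.08, and the 5th and 95th percentiles were -0.63 and 0.67. A difference above 0 was found in 39.3% of genes and one below 0 in 60.7%. Lamotrigine and DMSO, which share the control array with this comparison, were at least 2-fold apart in 23 of 14340 genes (0.16%). Scaling to the spike-in controls instead of the 75th percentile added 0.35 to every difference, so values between -0.35 and 0 lie above 0 on that scale, and 90.6% of the genes at least 2-fold apart were then higher with valproate, against 59.6% here. The 75th percentile of signal was 372 to 478 on the 3 arrays, and no spot was saturated (0 on each).

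The genes that were higher lay mostly at low levels. Classed by their signal on the lamotrigine array, which is on neither side of the difference, 159 of 2186 genes with a scaled signal under 25 were at least 2-fold higher with valproate (7.27%) and 64 were lower (2.93%). From 25 to 100 the counts were 80 higher and 73 lower of 3185 genes. Above 1600 only 1 of 1744 genes was higher and 8 were lower. Repeated spots of 1 probe gave the difference a standard deviation of 0.24 below a scaled signal of 25 and of 0.066 above 400, which is the spread within the arrays and not between cultures. Differences of low genes are thus the less precise ones.

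**Figure D1:**
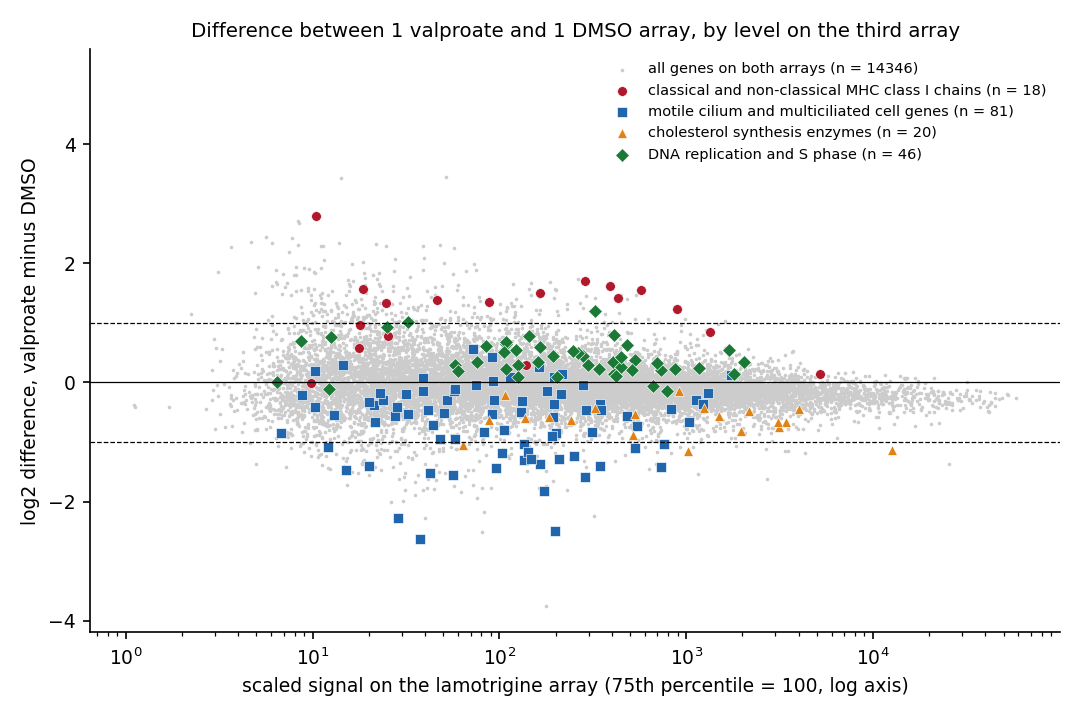
Log2 difference between the valproate and the DMSO array (vertical axis) against scaled signal on the lamotrigine array (horizontal axis, log scale) for the 14346 genes detected on both arrays. Red circles are MHC class I chains, blue squares motile cilium genes, orange triangles cholesterol synthesis enzymes and green diamonds S phase genes, and dashed lines mark 2-fold. Of the 18 MHC class I genes 17 lie above 0, and all 20 cholesterol synthesis enzymes lie below 0.

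**Figure D2:**
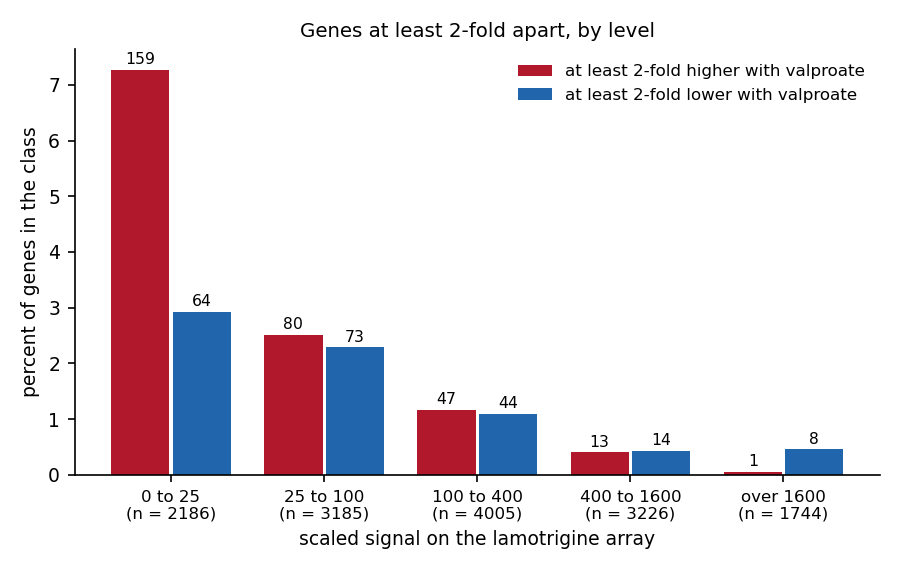
Percent of genes at least 2-fold higher (red) or lower (blue) with valproate in 5 classes of scaled signal on the lamotrigine array, with the number of genes above each bar. The share of higher genes is 7.27% below 25 and 0.0573% above 1600.

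The measured genes were described through 135 lists of gene families, pathways and cell type markers, of which 134 had at least 5 members detected on both arrays. The median difference was at least 0.25 in 6 lists, at most -0.25 in 9 and between these values in 119. The lists held 131 of the 300 genes that were higher and 85 of the 203 that were lower. The 6 lists with the high medians were MHC class I and class II chains, mitosis, S phase, germline genes and aquaporins. The 9 with the low medians included cholesterol synthesis enzymes, motile cilium genes, and markers of astrocytes and of oligodendrocyte precursors.

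**Figure D3:**
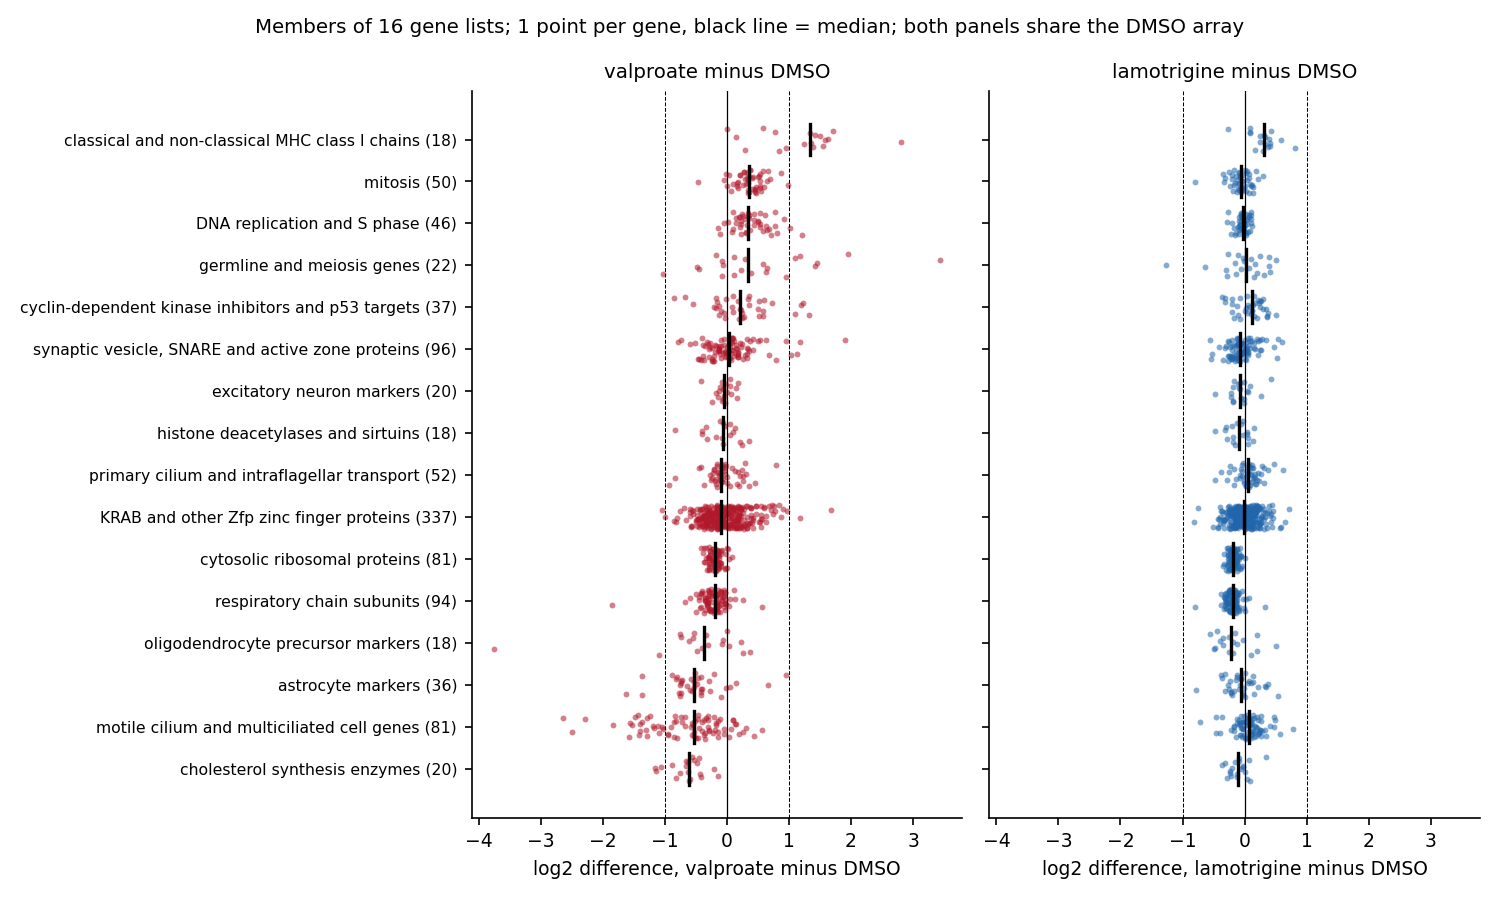
Log2 difference from DMSO of the members of 16 gene lists, 1 point per gene and a black line at the median, for valproate (left) and lamotrigine (right). The number of measured members follows each name, dashed lines mark 2-fold, and both panels use the same DMSO array. The median of MHC class I chains is 1.34 with valproate and 0.32 with lamotrigine, and that of cholesterol synthesis enzymes is -0.61 and -0.11.

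Antigen presentation held the group with the largest median. MHC class I molecules carry peptides from inside the cell to its surface and consist of a heavy chain, coded by the H2 genes of the mouse, and β2-microglobulin. Neurons are known for little surface class I. Of 25 genes of this class on the array, β2-microglobulin included, 18 were detected on both arrays, 17 of them above 0, and 11 were at least 2-fold higher with valproate, where 2.09% of all genes were. None was lower (0 genes). Their median difference was 1.34, and it was 0.84 to 1.69 over the alternative settings.

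The promoters of the classical genes H2-K1 and H2-D1 and of H2-M3 are shown because the class I genes were the family that stood highest as a group. The sequences are RefSeq promoters of the GRCm38.p6 build, read upstream of the start on the gene's own strand, at chr17:34000348-34000497 (minus strand) for H2-K1, chr17:35262904-35263093 (plus strand) for H2-D1 and chr17:37270084-37270233 (plus strand) for H2-M3. Capitals mark 3 motifs searched on both strands: a palindromic form of the kappa B site (GGGGA and TCCCC around 1 free base), GAANNGAAA, the core of an interferon response element, and CCAAT, each shown as it reads on the printed strand.
H2-K1: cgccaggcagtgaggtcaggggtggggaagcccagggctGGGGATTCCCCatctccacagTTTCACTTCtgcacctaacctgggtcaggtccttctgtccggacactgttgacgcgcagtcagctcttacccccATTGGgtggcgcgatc
H2-D1: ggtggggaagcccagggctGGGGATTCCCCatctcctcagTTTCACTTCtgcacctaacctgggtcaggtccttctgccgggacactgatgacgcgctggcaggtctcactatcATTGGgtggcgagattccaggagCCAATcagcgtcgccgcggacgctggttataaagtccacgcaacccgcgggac
H2-M3: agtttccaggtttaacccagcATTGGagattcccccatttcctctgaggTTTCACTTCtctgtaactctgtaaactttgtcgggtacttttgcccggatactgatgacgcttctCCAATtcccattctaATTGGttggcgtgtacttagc
The kappa B palindrome and the interferon core lie side by side in H2-K1 and H2-D1, and H2-M3 holds the interferon core without the exact palindrome. Over the promoter windows of all 11281 measured genes with an entry, from 250 bases before to 50 after the start, 0.0709% held the palindrome, 5.75% the interferon core and 38.4% a CCAAT. An entry was matched for 12 of the 18 measured class I genes, too few to give a share for the list. A match of letters is a description of the sequence and says nothing of binding in these cells.

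H2-K1 had scaled signals of 1682 with valproate, 711 with DMSO and 895 with lamotrigine, a log2 difference of 1.24, and its second probe gave 1.47. H2-D1 had 1268, 432 and 576 (log2 1.55). Both of these classical transplantation antigens were thus high genes on the control array already. H2-M3, which presents peptides that begin with formyl-methionine, stood at 61.1, 8.74 and 10.4 and had the largest difference of the family, 2.81. H2-T23, the gene of the non-classical molecule Qa-1, was at 699, 215 and 289 and differed by 1.70.

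The Q-region genes, which code further non-classical chains, were also high. H2-Q2 was at 918, 297 and 392 with a difference of 1.63, and its second probe gave 1.67. H2-Q6 was at 395, 139 and 165 (log2 1.51), and H2-Q7 at 934, 348 and 429.7 (log2 1.43). Weakly detected members, H2-Q10 at 37.3, 12.5 and 18.7 and H2-Q8 at 58.7, 23.3 and 24.7, differed by 1.58 and 1.33. H2-M2 and H2-Bl differed by 1.36 and 1.38. H2-Q4 was the exception among the bright members, with 4571, 4145 and 5219 and a difference of 0.14. Class I genes are near copies of each other, so a probe can take signal from a neighbour. No stretch of more than 19 bases was shared between any of the 17 class I probes on the array that were compared, but the probes were not matched to all transcripts of the family, and the split of signal between members is uncertain.

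β2-microglobulin, the light chain coded by B2m, had scaled signals of 1964 with valproate, 1096 with DMSO and 1343 with lamotrigine and a difference of 0.84. The class I-like genes had smaller differences: Mr1, which presents metabolites to T cells, differed by 0.59, Cd1d1, which presents lipids, by 0.29, and H2-T24 by -0.00. On the lamotrigine array 17 of the 18 class I genes also lay above DMSO, the same count as with valproate. Their median there was 0.32, with members from -0.27 to 0.81 and 0 of them 2-fold apart from DMSO. The lamotrigine values use the same DMSO array.

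Genes that make and move class I peptides did not stand apart as a group. Of 14 measured, 3 were at least 2-fold higher, where 2.09% of all genes were. The median was -0.07, which lies above 0 with quantile (0.03) or spike-in scaling (0.28) and in the deposited table (0.04). Psmb9, a catalytic subunit of the immunoproteasome, was at 183, 67.8 and 78.2 and differed by 1.44. Psmb8, another such subunit, was at 99.4, 46.8 and 48.4 (log2 1.08). Psmb10, the third of these subunits, lay the other way at 825, 1547 and 1301 (log2 -0.91). Tap1, a subunit of the pump that takes peptides into the endoplasmic reticulum, was at 67.8, 27.6 and 37.9 (log2 1.30), and Tap2, its partner, at 494, 355 and 387 (log2 0.48). Tapbp, which docks class I molecules to the pump, differed by 0.04, and Tapbpl by -0.82. Nlrc5, a transactivator of class I genes, was at 29.0, 18.0 and 17.3 (log2 0.68). Outside this group the interferon-inducible gene Bst2, which holds enveloped virus at the cell surface, differed by 1.57.

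Tap1 and Psmb9 start on opposite strands from a shared stretch of 225 bases, chr17:34187331-34187555 in GRCm38.p6, shown on the plus strand because both of its genes were more than 2-fold higher. Capitals mark CCAAT and the GC box GGGCGG, the latter read here from the other strand and held by 62.9% of the promoter windows.
Tap1 and Psmb9: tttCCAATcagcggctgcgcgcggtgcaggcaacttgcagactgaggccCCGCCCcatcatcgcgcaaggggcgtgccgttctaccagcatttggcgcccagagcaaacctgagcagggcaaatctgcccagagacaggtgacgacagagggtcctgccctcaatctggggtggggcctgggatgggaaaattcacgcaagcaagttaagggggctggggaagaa
Neither the exact palindrome nor the interferon core is in this stretch, which says only that these letters are absent from it.

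**Figure D4:**
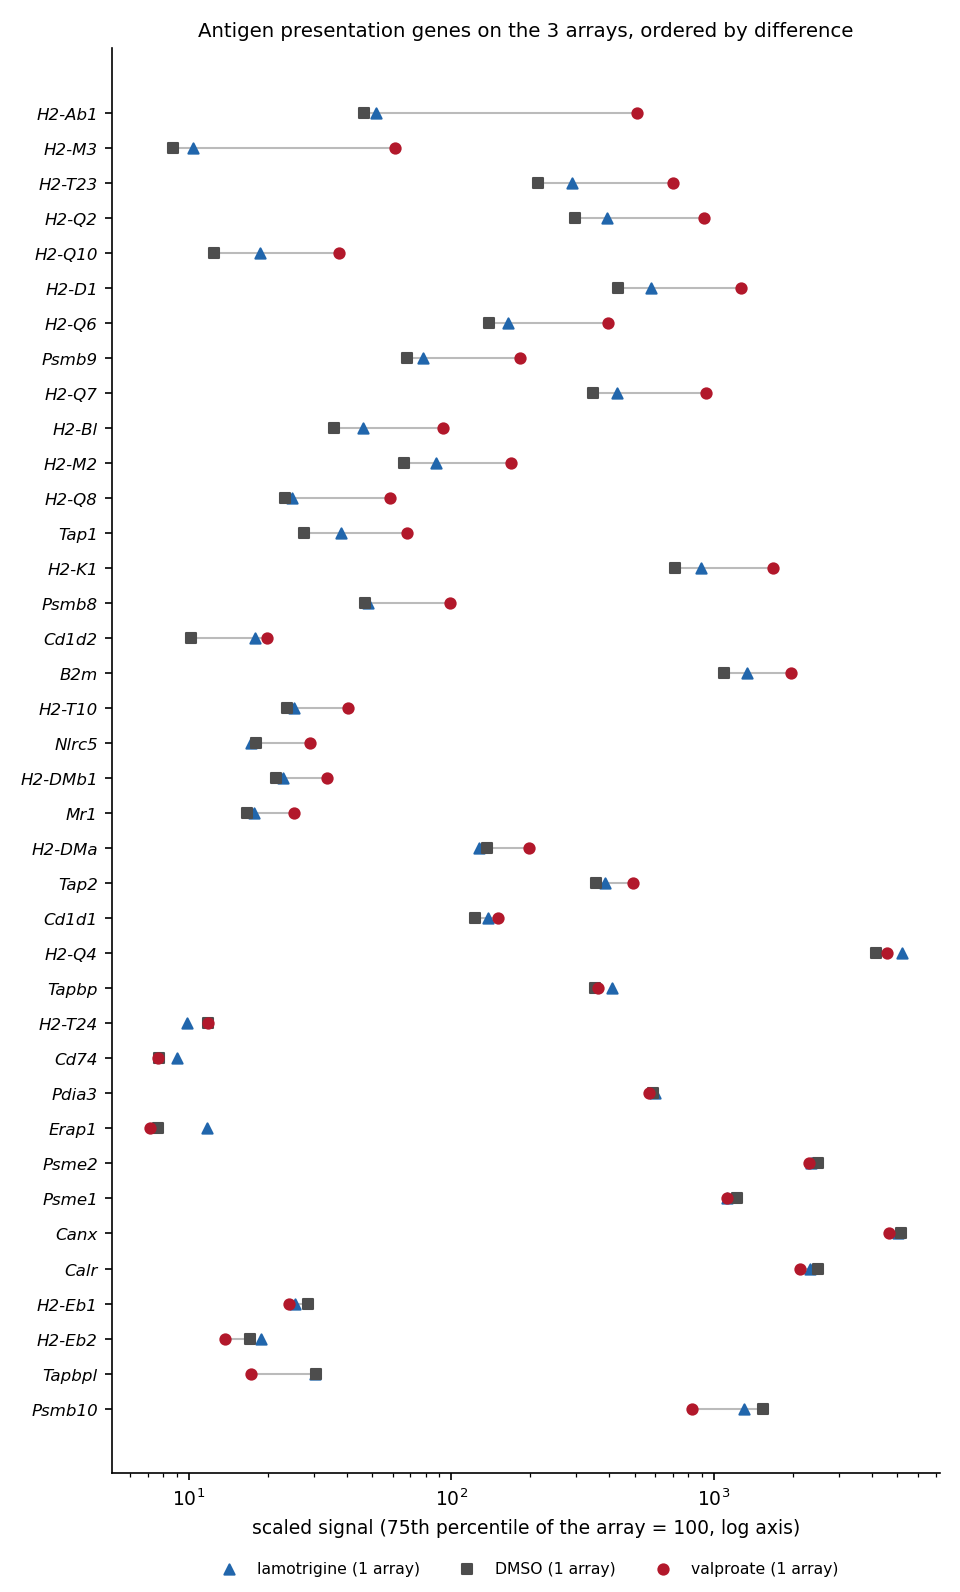
Scaled signal (log axis) of the measured antigen presentation genes on the valproate (red circle), DMSO (grey square) and lamotrigine (blue triangle) arrays, 1 array each, ordered by the difference between valproate and DMSO. H2-Ab1 is at 46.4 with DMSO and 510.1 with valproate, H2-M3 at 8.74 and 61.1, and Psmb10, at the bottom, at 1547 and 825.

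MHC class II molecules present peptides from outside the cell and belong mainly to professional antigen-presenting cells. H2-Ab1, the beta chain of I-A, had scaled signals of 510.1 with valproate, 46.4 with DMSO and 51.5 with lamotrigine, a difference of 3.46 that was the highest of all genes detected on both arrays, and a second probe that gave 3.29. Its main probe lies at chr17:34406296-34406355 in mm9, the build of the array's annotation. The other 5 measured members did not share this size: H2-DMb1 and H2-DMa, chains of the peptide exchanger, differed by 0.64 and 0.53, Cd74, the invariant chain, by -0.01, and H2-Eb1 and H2-Eb2 by -0.25 and -0.32. Cd74 was at 7.64, 7.71 and 9.07, not far above the detection floors of the arrays (3.88, 5.29 and 4.63). The list's median of 0.26 turned negative (-0.20) without the filter on undetected genes and was -0.09 against the lamotrigine array.

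Markers of microglia, the brain cells that are known for class II, did not differ in the same way. Of 24 such markers 15 were detected on neither array and 8 on both, with a median difference of -0.05, and their summed signal was 8544, 9065 and 9584. Csf1r, the receptor these cells need to survive, was at 95.7, 101 and 103, and C1qb, a complement chain, at 9.27, 9.36 and 7.12. Irf8, a transcription factor of myeloid cells, was nevertheless at 23.9, 10.4 and 11.6 (log2 1.20), and Syk, a kinase of myeloid cells, differed by 1.48. Fcgr3, an immunoglobulin receptor, was detected on the valproate array only (bound: at least 9.86-fold higher).

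Other immune families mostly held single genes that differed rather than shifts of the family. An exception was the list of caspases and receptor-interacting kinases, with 10 of 12 above 0, where 39.3% of all genes were. Its median was 0.19, and 0.07 to 0.54 over the alternative settings. Tlr2, a receptor for bacterial lipoproteins, was at 22.04, 9.28 and 13.7 (log2 1.25). With Nlrp9c (1.01) it made 2 of 12 measured Toll-like and NOD-like receptors at least 2-fold higher. Of all genes 2.09% were, and 7.27% of those with a signal under 25. A further 27 of the 41 receptors on the array were detected on neither array. The family's median was -0.05, but 0.10 in the deposited table and -0.45 without the detection filter. Tnfsf9, the ligand of the costimulatory receptor 4-1BB, was at 57.5, 16.1 and 18.9 (log2 1.83), whereas Ltb, the membrane anchor of lymphotoxin, was at 5.16, 14.02 and 12.1 (log2 -1.44). Among complement genes C1s1, a protease of the first component, differed by 1.63 and C4b, the fourth component, by -1.08. Cxcl12, a chemokine that guides migrating neurons and progenitors, was at 254, 699 and 628 by its main probe, -1.46, but 0.21 by another probe. Ripk4, a kinase of epithelial cells, was at 27.3, 7.54 and 10.2 (log2 1.86), and Usp18, which takes the interferon-induced modifier ISG15 off proteins, at 74.2, 31.4 and 35.0 (log2 1.24). Of the interferon-inducible oligoadenylate synthetases, Oas1a was detected with valproate only (bound: at least 7.48-fold higher). Guanylate-binding proteins and immunity-related GTPases, which are strongly interferon-inducible, had a median of 0.07 and 0 of 15 genes 2-fold apart. Of all genes 3.51% were, and at that share a list of 15 can hold 0.

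Motile cilium genes formed the largest group that was lower. Motile cilia beat by dynein arms on a microtubule axoneme, are built by multiciliated cells such as ependyma after centrioles are amplified, and share intraflagellar transport with the single primary cilium of most cells. Of 98 such genes on the array 81 were detected on both arrays, with a median of -0.53 that was -0.18 with spike-in scaling and -0.44 to -0.57 under the other settings. At least 2-fold lower were 23 genes, where 1.42% of all genes were, and 0 were 2-fold higher. Above 0 lay 11 of the 81. The same genes on the lamotrigine array had a median of 0.06 against the shared DMSO array, from -0.71 to 0.77.

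Genes of centriole amplification, dynein assembly and the axoneme were among those that were lower. Deup1, which builds the deuterosome where new centrioles arise, was at 31.6, 178 and 198 (log2 -2.49). Ccno, needed for that amplification, was at 71.9, 174 and 209 (log2 -1.28), and Myb, a transcription factor of early multiciliated cells, at 20.8, 61.1 and 56.1 (log2 -1.55). Zmynd10, a factor that assembles dynein in the cytoplasm, was at 32.2, 86.9 and 95.4 (log2 -1.43). Axonemal dynein chains were lower too: Dnah6 was at 46.4, 114 and 135 (log2 -1.30), Dnali1 at 54.97, 124 and 143 (log2 -1.18), and Dnah10 at 8.59, 22.6 and 20.1 (log2 -1.40). Lrrc23, a part of the radial spoke, was at 47.3, 168 and 173 (log2 -1.83). In all of these the valproate array lay below both others, and the lamotrigine value was within 0.26 (log2) of DMSO.

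Further members were Tmem212 at 5.81, 36.1 and 37.6 (log2 -2.63), Tctex1d4 at 5.44, 26.4 and 28.7 (log2 -2.28), and Ccdc153 at 105, 314 and 286 (log2 -1.58). Only Gpr17, described with the precursor markers, had a lower difference than Tmem212 among all genes detected on both arrays. Among the brighter ones, Cfap126 was at 277, 739 and 736 with -1.42 by the main and -1.42 by the second probe, Dynlrb2 at 328, 673 and 760.4 (log2 -1.04), and Fam183b at 278, 596 and 529 (log2 -1.101). The members that lay highest were Dnah7a, a dynein heavy chain, at 0.57, and Cfap100 at 0.44. Wdr63, Meig1 and Tekt4 were again lower, by log2 differences of -1.24, -1.40 and -1.28. Morn3 and Cfap65, detected with DMSO only, were at least 3.804-fold and 3.51-fold lower by the bound.

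Regulators of the programme lay on both sides of its median. Foxj1, the transcription factor of motile cilium genes, was at 484, 771 and 1029 (log2 -0.67). Mcidas, the multiciliate differentiation factor that acts before Foxj1, was at 1753, 1608 and 1730.1 (log2 0.12). Foxn4, another forkhead factor known in multiciliated cells and in neurogenesis, was at 8.19, 39.7 and 40.2 (log2 -2.28), the only forkhead gene of 25 that was 2-fold apart. Genes of the primary cilium and of intraflagellar transport had a median of -0.09 over 52 genes and 0 at least 2-fold apart, where 3.51% of all genes were. The differences ran from -0.93 for B9d2, of the transition zone, to 0.79 for Ttc21b, of the retrograde transport complex.

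Promoters of Lrrc23 and Deup1 are shown because these cilium genes were among the lowest of the array and each holds a short motif of the RFX factors, which are known for ciliary genes. They are RefSeq sequences of GRCm38.p6 ending at the start, chr6:124779728-124779847 (minus strand) and chr9:15627847-15627966 (minus strand). Capitals mark GTTGCCA or its complement TGGCAAC.
Lrrc23: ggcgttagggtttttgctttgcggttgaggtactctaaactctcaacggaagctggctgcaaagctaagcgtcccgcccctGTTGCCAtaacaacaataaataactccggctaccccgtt
Deup1: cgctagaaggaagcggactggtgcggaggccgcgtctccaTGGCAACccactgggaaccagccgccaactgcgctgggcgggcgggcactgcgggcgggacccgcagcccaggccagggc
An entry was matched for 71 of the 81 motile cilium genes, and 15 of these (21.1%) held this motif on either strand, against 4.19% of all 11281 windows. In the primary cilium list it was 10 of 44 (22.7%), a like share in a list with no gene 2-fold apart.

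**Figure D5:**
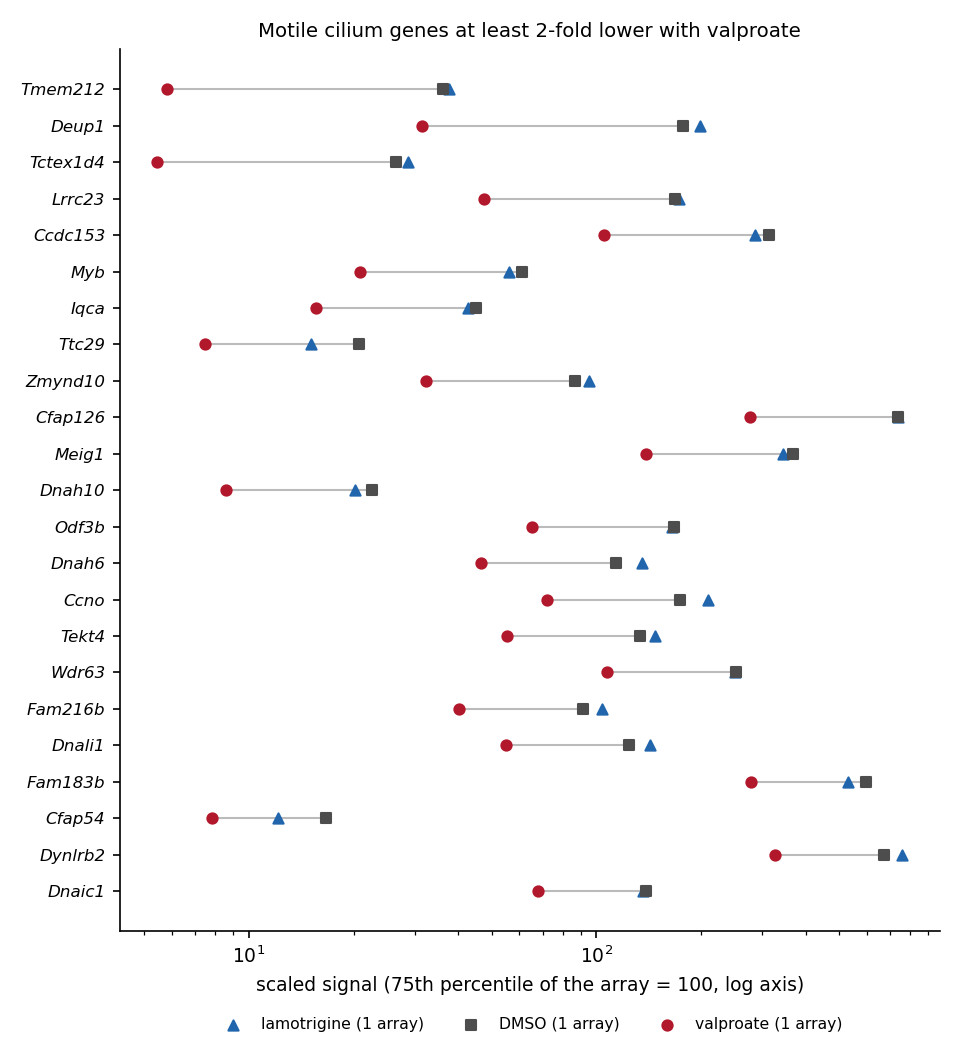
Scaled signal (log axis) on the 3 arrays of the 23 motile cilium genes that were at least 2-fold lower with valproate, ordered by the difference. Red circles (valproate) lie left of both the grey squares (DMSO) and the blue triangles (lamotrigine) for each gene, from Tmem212 at 5.81 against 36.1 to Dnaic1 at 67.8 against 138.

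Cholesterol synthesis was lower as a whole pathway. Its enzymes turn acetyl-CoA through mevalonate, isoprenes and squalene to sterols, and their genes are activated by SREBP, a transcription factor that is released when sterols are low. All 20 enzymes were measured and all 20 lay below 0, with a median of -0.61, or -0.26 with spike-in scaling. Of these, 3 were at least 2-fold lower, where 1.42% of all genes were. Below 0 lay 60.7% of all genes. With lamotrigine the median was -0.11, from -0.36 to 0.34, against the same DMSO array.

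By step of the pathway, Hmgcs1, which makes HMG-CoA, was at 6776, 14899 and 12655 (log2 -1.14), with -0.65 by a second probe. Mvd, the last enzyme of the mevalonate steps, was at 358, 664 and 516 (log2 -0.89). Idi1, which isomerises the first isoprene unit, was at 528, 1173 and 1021 (log2 -1.15). Sqle, which oxidises squalene, was at 3135, 4276 and 3998 (log2 -0.45), and Lss, which closes the sterol rings, at 31.0, 64.5 and 63.4 (log2 -1.06). Ebp had the smallest difference, -0.14.

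Promoters of Hmgcs1 and Idi1 are shown because these genes were the lowest of the pathway. They are RefSeq sequences of GRCm38.p6 on the plus strand, chr13:119690101-119690350 and chr13:8885506-8885605, with CCAAT in capitals, read here from the other strand.
Hmgcs1: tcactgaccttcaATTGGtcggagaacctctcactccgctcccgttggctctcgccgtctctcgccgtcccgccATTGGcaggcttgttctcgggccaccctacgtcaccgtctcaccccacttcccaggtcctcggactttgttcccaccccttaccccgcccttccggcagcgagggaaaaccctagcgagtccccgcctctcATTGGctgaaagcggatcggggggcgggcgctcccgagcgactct
Idi1: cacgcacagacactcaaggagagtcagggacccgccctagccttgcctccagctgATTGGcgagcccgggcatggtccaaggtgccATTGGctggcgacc
Hmgcs1 holds 3 copies in this window and Idi1 holds 2, where 38.4% of all windows held at least 1. Entries were matched for 15 of the 20 enzymes, too few to give a share for the pathway.

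Of 23 genes of sterol sensing, uptake and efflux 2 were at least 2-fold lower, where 1.42% of all genes were, and 0 higher. Below 0 lay 13 of the 23, where 60.7% of all genes did. Insig1, which holds SREBP back when sterols are plentiful, was at 45.7, 99.0 and 104 (log2 -1.11). Srebf2, the gene of the sterol-controlled SREBP, was at 155, 209 and 197 (log2 -0.44), and Srebf1 differed by -0.53. Abcg1, which exports sterol, lay the other way at 353, 243 and 264 (log2 0.54), and Cyp46a1, which clears cholesterol from neurons, differed by 0.47. The median was -0.15, or 0.20 with spike-in scaling. Among 30 genes of fatty acid synthesis and desaturation, 1 was 2-fold lower, Scd4 at 15.7, 34.9 and 47.3 (log2 -1.15), and Scd1, the main stearoyl-CoA desaturase of fat and liver, was at 812, 1550.2 and 1729 (log2 -0.93). Mitochondrial fatty acid oxidation, which valproate itself enters, had a median of 0.03 and 0 of 32 genes 2-fold apart, where 3.51% of all genes were.

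Astrocyte markers were lower in most members and unevenly. All 36 markers were measured. Of these 32 were below 0 and 3 were at least 2-fold lower, where 60.7% and 1.42% of all genes were. The markers had a median of -0.53, or -0.18 with spike-in scaling. The sum of their signals was 86932, 132415 and 123812. Aqp4, the water channel of astrocyte endfeet, was at 795, 2444 and 2716 (log2 -1.62), with -1.53 by its second probe. Aldoc, the aldolase of astrocytes, was at 10073, 25995 and 25605 (log2 -1.37), and Slc25a18, a mitochondrial glutamate carrier, at 245, 631 and 691 (log2 -1.37). Slc1a2, the main glutamate transporter of the forebrain, was at 170.3, 296 and 271 (log2 -0.80). Gfap, the astrocyte filament protein, was at 2332, 2242 and 2603 (log2 0.06), and its other probes gave -0.43 and 0.11. Slc7a10, a serine transporter, lay highest at 73.7, 37.97 and 29.2 (log2 0.96). Genes of the reactive state had a median of -0.19 over 28, which was 0.16 with spike-in scaling. Of these, 2 were at least 2-fold higher, where 2.09% of all genes were.

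Oligodendrocyte precursors held the single largest difference of the array. Gpr17, a receptor of the stage before myelination, was at 18.6 with valproate, 251 with DMSO and 178 with lamotrigine, a difference of -3.75. It had 1 probe. Bcas1, which marks newly forming oligodendrocytes, was at 24.0, 51.0 and 54.97 (log2 -1.09). Sox10, the lineage factor, was at 159, 267 and 224 (log2 -0.75), and Pdgfra, the growth factor receptor of precursors, at 225, 343 and 261 (log2 -0.60), whereas Olig2 was at 365, 312 and 275 (log2 0.22), and the proteoglycan Cspg4 at 167, 129.6 and 109 (log2 0.37). Over 18 markers the median was -0.37, or -0.02 with spike-in scaling, and -0.22 with lamotrigine. Myelin genes had a median of -0.18 over 18 genes, or 0.17 with spike-in scaling, with 11 below 0 and none 2-fold apart (0). Mbp, myelin basic protein and 1 of the 7 above 0, was at 261, 172 and 179.9 (log2 0.60). The genes Lgi4, Cmtm5 and Pllp, each known from glia or myelin, differed by -1.74, -1.54 and 1.87.

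Neuronal markers held 0 genes 2-fold apart in 63, where 3.51% of all genes were. That share falls with level: at a scaled signal of 400 to 1600, 0.40% of genes were higher and 0.43% lower. The 20 pan-neuronal markers had a median of -0.28, which became 0.07 with spike-in scaling, from -0.94 for Tubb3, the neuronal tubulin at 3996, 7649 and 6399, to 0.60 for Nefm, a neurofilament at 198, 131 and 105. Dcx, of young migrating neurons, was at 734, 1206 and 1058 (log2 -0.72). The 20 markers of excitatory neurons had a median of -0.05 and inhibitory ones -0.13 over 23, which became 0.30 and 0.22 with spike-in scaling. Cort, the neuropeptide cortistatin, was at 260.0, 416 and 97.4, so that its lowest level was with lamotrigine (-2.09) and not with valproate (-0.68). Markers of vessels had a median of -0.14 over 12 measured genes. Those of fibroblasts and meninges had -0.30 over 20, which became 0.04 with spike-in scaling, and held 1 gene 2-fold lower, Mgp, an inhibitor of calcification, at 82.0, 167 and 156 (log2 -1.03). Progenitor markers had a median of -0.08 over 18. The part of cell composition in any of these differences was not tested.

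Cell cycle genes were higher by small amounts in nearly every member. Of 46 genes of DNA replication and S phase 43 lay above 0, where 39.3% of all genes did, with a median of 0.35 that was 0.34 to 0.70 over the alternative settings. At least 2-fold higher were 2, Ccne1, the cyclin that starts S phase, at 741, 321 and 325 (log2 1.21), and Gmnn, geminin, which stops DNA from being licensed again, at 68.0, 33.6 and 32.4 (log2 1.01). Mcm2, a subunit of the replicative helicase, was at 228, 133 and 144 (log2 0.78), Chaf1b, of the chromatin assembly factor, at 784, 450.3 and 411 (log2 0.80), and Pole2, of polymerase epsilon, at 44.1, 23.2 and 24.9 (log2 0.93). Of 50 genes of mitosis 47 lay above 0, with a median of 0.36 and 0 at least 2-fold apart. Espl1, the protease separase, was at 86.3, 43.7 and 47.4 (log2 0.98), and Pttg1, its inhibitor securin, at 2312, 1259.8 and 1276 (log2 0.88). Mki67, a general marker of cycling cells, was at 1418, 987 and 894 (log2 0.52). On the lamotrigine array the medians were -0.03 and -0.06 against the same control.

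Inhibitors of the cycle and targets of p53 lay above 0 in 24 of 37 cases, where 39.3% of all genes did. With lamotrigine 26 of the 37 lay above 0 against the same DMSO array, with a median of 0.11. Cdkn1c, which codes p57, was at 477, 189.8 and 270.2 (log2 1.33), and Cdkn2a, which codes p16 and p19ARF, at 238, 112 and 120.3 (log2 1.09). The p53 targets Pmaip1, which codes the death protein NOXA, and Perp, a membrane protein, were at 455, 194 and 229 (log2 1.23) and 425, 185 and 202 (log2 1.20). These were the 4 genes at least 2-fold higher in this list, where 2.09% of all genes were. The list's median was 0.22, or 0.12 against the lamotrigine array. The lowest member, Trp53inp2, was at 1954, 3510.0 and 2833 (log2 -0.84). Among 28 genes of the BCL2 family and apoptosome Pmaip1 was the only 2-fold one, and the median was -0.03.

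Germline and meiosis genes are normally silent in brain, and 22 of 69 on the array were detected on both arrays. Of these 6 were at least 2-fold higher and 1 lower, where 2.09% and 1.42% of all genes were, and 7.27% of genes with a signal under 25 were higher. The list had a median of 0.34 that became -0.08 without the detection filter. Tcfl5, a helix-loop-helix factor of spermatocytes, had 107.1 with valproate, 9.95 with DMSO and 14.1 with lamotrigine, a difference of 3.43. Zar1, an oocyte factor, was at 23.8, 6.17 and 5.11 (log2 1.95). Syce2, of the synaptonemal complex, was at 499, 182 and 163 (log2 1.46), and Rec8, the meiotic cohesin, at 661, 247 and 323 (log2 1.42), both already well detected with DMSO. Ybx2, which binds stored messenger RNA in germ cells, was at 232, 102 and 121 (log2 1.18), and Tex15, which silences transposons in male germ cells, at 17.3, 8.12 and 7.94 (log2 1.09). Gdf9, an oocyte growth factor, was the member that was lower, at 36.9, 75.2 and 68.4 (log2 -1.03).

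Families that write, read or remove chromatin marks held few differences. The 18 histone deacetylase and sirtuin genes had a median of -0.06, or 0.29 with spike-in scaling, and 0 were 2-fold apart. Hdac1 was at 2695, 2275 and 2053 (log2 0.24), Hdac2 at 21.7, 17.02 and 18.6 (log2 0.35), and Sirt1, a NAD-dependent deacetylase, at 78.1, 139 and 112 (log2 -0.83). Acetyltransferases and bromodomain proteins held 1 gene 2-fold lower of 37, Brpf3, a subunit of the HBO1 acetyltransferase complex, at 35.9, 77.6 and 75.4 (log2 -1.11), and Brd2, a reader of acetylated histones, was at 1720.1, 2849 and 2271 (log2 -0.73). Polycomb proteins, remodellers, lysine demethylases and the NuRD, Sin3 and CoREST corepressors had 0 of 145 genes 2-fold apart. Of all genes 3.51% were, a share that falls with the level of signal. Prdm10 was the 1 methyltransferase gene of 40 that was 2-fold lower, at 6.04, 14.3 and 9.76 (log2 -1.24).

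Replacement and linker histone variants had a median of 0.11 with 8 of 11 above 0, and 0 were 2-fold apart. H1f0, the linker histone known to accumulate in cells treated with deacetylase inhibitors, was at 54.2, 28.3 and 30.3 (log2 0.94), and H1f10 at 178, 127 and 133 (log2 0.49). Of 42 canonical histone genes 3 were 2-fold lower and 0 higher, where 1.42% and 2.09% of all genes were. The lower ones were H3c15 at 68.8, 239 and 229 (log2 -1.80), H2bc4 at 1228, 2675 and 2678 (log2 -1.12), and H2ac18 at 927, 1951 and 1847 (log2 -1.07). The family's median of -0.17 became 0.18 with spike-in scaling and 0.10 against the lamotrigine array. Canonical histone genes are close copies, so a probe may read more than 1 of them. Macroh2a2, a variant of silent chromatin, was at 911, 1324 and 1149.6 (log2 -0.54).

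Homeobox factors, which set regional and cell identity in development, differed in a few members of low signal. Of 79 measured homeobox genes outside the Hox clusters 5 were at least 2-fold higher and 1 lower (Barx2, -1.097). Of all genes 2.09% were higher and 1.42% lower, and 7.27% of genes with a signal under 25 were higher. The higher homeobox genes were Pou4f1, of sensory neurons, at 35.4, 7.11 and 8.34 (log2 2.32), Six4 at 21.7, 6.93 and 6.46 (log2 1.65), Lhx5 at 19.9, 7.01 and 4.92 (log2 1.504), Onecut2 at 115, 55.3 and 54.3 (log2 1.06), and Hmx1 at 90.5, 45.2 and 42.4 (log2 1.00). Apart from Onecut2 and Hmx1 these were below a scaled signal of 10 with DMSO. Detected with valproate only were 21 homeobox genes outside the Hox clusters. Of these, 5 were at least 2-fold higher by the bound, against 14.6% of all genes detected with valproate only. Phox2a, of noradrenergic neurons, was at least 3.46-fold higher and Isl2, of motor neurons, at least 3.06-fold. The others were Lhx4 at least 2.92-fold, Onecut1 at least 2.67-fold and Pitx3, of midbrain dopamine neurons, at least 2.31-fold. The 39 Hox genes on the array were in no case detected on both arrays (0 genes). The homeobox median of -0.08 became positive with spike-in scaling.

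Helix-loop-helix factors held 5 genes higher and 3 lower of 67, where 2.09% and 1.42% of all genes were (7.27% higher under a signal of 25). Besides Tcfl5 these were Npas1, of inhibitory neurons, at 236, 102 and 109 (log2 1.21), Hif3a, of the hypoxia response, at 70.3, 30.5 and 21.1 (log2 1.20), Tal1, of blood and midbrain, at 88.5, 41.9 and 54.3 (log2 1.08), and Mesp2 at 13.3, 6.42 and 5.76 (log2 1.05). Npas4, induced by neuronal activity, was at 32.2, 68.8 and 42.7 (log2 -1.096), Scx, of tendon, at 12.8, 27.9 and 25.02 (log2 -1.13), and Msc at 7.37, 15.8 and 9.57 (log2 -1.103). The lamotrigine value of Npas4 lay between the other arrays. Esrrb, an orphan receptor of pluripotent cells, was the only nuclear receptor of 32 at least 2-fold apart, at 50.6, 21.3 and 22.2 (log2 1.25). Cebpa, of fat and myeloid cells, differed by 1.11 and Atf5, of the stress response, at 3164, 7197 and 4315, by -1.19. Zinc finger proteins of the Zfp series, the largest family with 337 measured, held 2 genes higher and 1 lower, Zfp820 at 24.3, 7.59 and 7.27 (log2 1.68), Zfp54 (1.18) and Zfp819 (-1.05). SOX, Kruppel-like, ETS, and GATA, T-box and RUNX factors had 0 genes 2-fold apart in 60, where 3.51% of all genes were. The ETS median of -0.26 became 0.09 with spike-in scaling and 0.09 against the lamotrigine array.

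Of the signalling pathways, Wnt held 4 genes at least 2-fold higher of 58 and 0 lower, with a median of 0.01, where 2.09% of all genes were higher and 7.27% of those with a signal under 25. Wnt6, a ligand, was at 49.3, 12.99 and 11.1 (log2 1.92), and Rspo1, which strengthens Wnt signals at the receptor, at 152, 42.9 and 56.3 (log2 1.83). Sfrp2, a secreted antagonist, was at 133, 62.2 and 59.8 (log2 1.09), and Lef1, a nuclear effector of the pathway, at 61.7, 29.9 and 34.2 (log2 1.05). Tcf7, its relative, differed by 0.94. Dvl3, a cytoplasmic relay of the pathway, was the lowest at 462, 899 and 690.5 (log2 -0.96).

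In the Hedgehog pathway 2 of 17 measured genes were at least 2-fold higher, both near the 2-fold line. Of all genes 2.09% were, and 7.27% of those with a signal under 25. Gli1, a transcription factor and target, was at 211, 105 and 119 (log2 1.01), and Hhip, a membrane protein that binds the ligand and is itself a target, at 32.1, 15.4 and 16.03 (log2 1.06). Dhh, a ligand, was detected with valproate only (bound: at least 4.87-fold higher). Gli2 differed by 0.72, and Smo, the transducer, was at 1156, 1273 and 1464 (log2 -0.14). The median over 17 genes was 0.08, but -0.009 with normexp background correction and -0.07 against the lamotrigine array. With lamotrigine it was 0.12 against the same DMSO array, and 14 of 17 lay above 0. Notch genes had 1 of 38 lower, Ncstn, a subunit of gamma-secretase, at 4.50, 11.8 and 11.2 (log2 -1.39). In the TGF-beta and BMP families Acvr1c, a type I receptor, was at 27.3, 12.03 and 10.9 (log2 1.18), and Bmpr1b, a BMP receptor, at 44.4, 93.1 and 90.6 (log2 -1.07).

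Kinases and their regulators differed in single members. Mapk13, which codes p38 delta, was at 43.4, 8.53 and 6.02 (log2 2.35), and Mapk12, p38 gamma, at 129, 52.4 and 64.0 (log2 1.30). They stand beside Map3k15 as the 3 of 42 mitogen-activated kinase genes at least 2-fold higher. Of all genes 2.09% were, and 7.27% of those with a signal under 25. Ret, the receptor of the GDNF family, was at 22.98, 7.95 and 8.14 (log2 1.53), and Nrtn, a ligand of that family, at 811, 364 and 368 (log2 1.15). Prkcd, a protein kinase C, was at 154, 50.6 and 45.4 (log2 1.61). Cntf, a cytokine of astrocytes and Schwann cells, was at 169, 395 and 467 (log2 -1.23), and Fgf1, an acidic fibroblast growth factor, at 578, 1230.2 and 1085 (log2 -1.09). Plcd3 and Plcg2, phospholipases that cut phosphoinositides, were at 166, 61.7 and 64.2 (log2 1.43) and 192, 74.2 and 79.0 (log2 1.37). Inpp5f, an inositol phosphatase, lay the other way at 29.4, 64.0 and 47.6 (log2 -1.13). Inositol synthesis and turnover as a list, often discussed for valproate as a mood stabiliser, had a median of -0.10 over 46 genes, which lies above 0 with spike-in scaling.

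Small GTPases of membrane traffic and of the RAS branch held some of the largest differences. Rab37, linked to secretory granules, was at 57.6, 8.99 and 8.42 (log2 2.68), with 2.59 by its second probe. Rab39 was at 30.2, 7.88 and 8.12 (log2 1.94), Rab26, of secretory vesicles, at 192, 52.3 and 66.3 (log2 1.88), and Rab42 at 21.5, 9.90 and 6.07 (log2 1.12). These are 4 of 62 measured, where 2.09% of all genes were higher, and the family's median was -0.07, above 0 with quantile or spike-in scaling and in the deposited table. Of 76 RAS, RAP and ARF genes and regulators 6 were at least 2-fold higher and 0 lower, while 50 lay below 0 and the median was -0.12, or 0.23 with spike-in scaling. The highest were Rasa4, a GTPase activator, at 218, 51.2 and 39.3 (log2 2.09), and Rasl12 at 32.7, 9.40 and 8.16 (log2 1.80). Rasd2, which codes the striatal protein Rhes, was at 417, 151 and 148 (log2 1.47), and Rasip1, of vessel formation, at 186, 87.1 and 71.0 (log2 1.096).

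G-protein signalling also held single genes apart. Rgs10, which shortens G-protein signals, was at 1396, 529 and 480.4 (log2 1.40), a high gene with a large difference, and Gng8, a gamma subunit, at 24.2, 8.11 and 10.11 (log2 1.57). Pde8a, a cyclic AMP phosphodiesterase, was at 29.4, 7.91 and 6.396 (log2 1.90), and Adcy7, an adenylyl cyclase, at 87.0, 32.2 and 30.4 (log2 1.43). Besides Gpr17, the orphan receptors Gpr22 and Gpr179 were 2-fold lower, at 6.04, 20.02 and 15.2 (log2 -1.73) and 9.55, 24.3 and 29.5 (log2 -1.35). Olfactory, vomeronasal and taste receptors, which this tissue does not use for its own senses, were detected on both arrays in 44 of 1371 cases. Of these 44, 0 were 2-fold apart, where 3.51% of all genes were. Their median of -0.30 became 0.05 with spike-in scaling.

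Solute carriers were the largest transport family, with 262 measured and a median of -0.05, or 0.30 with spike-in scaling. At least 2-fold higher were 8 (3.05%) and lower 4 (1.53%), near the 2.09% and 1.42% of all genes. Slc39a8, a zinc and manganese importer, was at 30.05, 5.55 and 5.63 (log2 2.44), and Slc30a3, the carrier that loads zinc into synaptic vesicles, at 22.96, 7.15 and 6.37 (log2 1.68). Slc16a3, the lactate exporter MCT4, was at 76.6, 15.7 and 11.3 (log2 2.29), and 2.63 by another probe. Slc18a3, the vesicular acetylcholine transporter, was at 35.0, 9.21 and 9.02 (log2 1.93). The urea transporters Slc14a2 and Slc14a1 were both lower, at 40.3, 138 and 164 (log2 -1.78) and 9.44, 27.2 and 31.3 (log2 -1.53). Slc13a3, a dicarboxylate carrier of astrocytes, was at 231, 575 and 415 (log2 -1.31). Abca7, a lipid transporter linked to Alzheimer's disease, was at 556, 207 and 195 (log2 1.42).

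Water channels differed by member: Aqp5, of glands, was at 36.3, 7.09 and 4.69 (log2 2.36), opposite to the astrocyte channel Aqp4. With only 5 measured, the median of 0.44 became -0.10 without the detection filter and -0.41 against the lamotrigine array.

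Ion channels include the sodium channels that valproate and lamotrigine are known to act on as proteins. Of all genes 2.09% were at least 2-fold higher and 3.51% apart. At these shares, lists as short as those of sodium and calcium channels can hold 0 such genes. The 12 genes of the voltage-gated sodium channel list, which also holds the leak channel Nalcn, had a median of -0.07, or 0.28 with spike-in scaling. Of these 12, 0 were 2-fold apart, from -0.41 for Nalcn to 0.84 for Scn11a. Of 68 potassium channel genes 2 were higher, Kcnab3, a beta subunit, at 39.97, 9.64 and 11.5 (log2 2.05), and Kcns1, a silent subunit, at 51.1, 15.7 and 16.5 (log2 1.70). Kcnj10, the astrocyte channel Kir4.1, was at 1310.5, 2247 and 2512 (log2 -0.78). Calcium channels had 0 of 21 genes 2-fold apart.

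Transmitter systems held some genes at least 2-fold apart, where 3.51% of all genes were and 2.09% were higher. Gabrd, the delta subunit of GABA receptors outside synapses, was at 323, 133 and 119.8 (log2 1.28), the only 1 of 31 GABA and glycine genes 2-fold apart. The enzymes Gad1 and Gad2 that make GABA differed by -0.29 and -0.47. Nptx2, a secreted pentraxin that gathers glutamate receptors, was at 42.7, 12.2 and 7.92 (log2 1.81), while the subunit genes Gria1 and Grin2a differed by -0.46 and -0.58. Hdc, which makes histamine, was at 22.99, 78.2 and 90.3 (log2 -1.77). Synaptic vesicle, SNARE and active zone genes had 4 of 96 higher and a median of 0.03, among them Sytl4, of granule docking, at 29.9, 8.002 and 9.55 (log2 1.90), and Syt17 at 39.0, 17.3 and 26.3 (log2 1.17). Activity-regulated genes had a median of 0.05 over 41, with Egr1 at 362, 225 and 201 (log2 0.69), and Fos at 47.2, 64.9 and 77.2 (log2 -0.46).

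Matrix and junction genes were mixed. Emilin2, an elastic-fibre glycoprotein, was at 211, 42.4 and 48.3 (log2 2.31), and Fbln2, a basement membrane protein, at 181, 86.3 and 104 (log2 1.07), whereas Spon2, a secreted matrix protein, was at 8.86, 35.1 and 30.4 (log2 -1.99), and Lamb3, a laminin chain, at 5.28, 12.4 and 11.7 (log2 -1.23). Of 32 collagen genes 0 were 2-fold apart, where 3.51% of all genes were, and Col3a1 lay lowest at 329.5, 647 and 554 (log2 -0.97). Klk8, neuropsin, a secreted protease of the hippocampus, was at 44.5, 9.09 and 11.1 (log2 2.29). The junction genes F11r, which codes JAM-A, and Tjp3, a tight junction scaffold, were at 87.2, 29.1 and 32.0 (log2 1.59) and 115, 42.1 and 42.9 (log2 1.44). In this list 3 of 28 measured genes were at least 2-fold higher, where 2.09% of all genes were. The list's median of -0.20 became 0.15 with spike-in scaling. Itgb3 and Itga4, integrin chains, were at 51.4, 20.1 and 17.1 (log2 1.36) and 45.0, 18.0 and 11.5 (log2 1.32). Metalloproteinase genes and inhibitors had 1 higher and 3 lower of 43, where 2.09% and 1.42% of all genes were. Timp4, an inhibitor, was among the lower ones at 141, 353 and 283 (log2 -1.32).

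Cytoskeletal genes split. Tuba8 and Tuba1c, alpha tubulins, were at 51.0, 16.4 and 19.2 (log2 1.64) and 1056, 468 and 436 (log2 1.17), and Prph, a filament of peripheral neurons, was at 136, 65.1 and 63.7 (log2 1.07). Map7d3 was at 31.8, 11.3 and 11.2 (log2 1.497). The list of 61 nevertheless had a median of -0.25, which became 0.10 with spike-in scaling, and 45 of them lay below 0. Tubulin probes may read several members of that family.

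Metabolic enzymes differed singly. Gstt3, a glutathione transferase, was at 239, 60.1 and 73.0 (log2 1.99), and Sult1a1, a sulfotransferase, at 59.5, 146 and 147 (log2 -1.30). Cyp26a1, which breaks down retinoic acid, was at 29.1, 9.47 and 6.05 (log2 1.62), the only cytochrome P450 gene of 27 at least 2-fold apart. Aldh1b1 and Aldh3b2, aldehyde dehydrogenases, lay opposite ways, with differences of 1.25 and -1.66. Acox2, a peroxisomal oxidase of bile acid intermediates, was at 11.3, 39.0 and 44.6 (log2 -1.79), and Cox8b, a muscle form of a cytochrome oxidase subunit, at 22.7, 81.6 and 62.5 (log2 -1.85). The uncoupling proteins Ucp2 and Ucp3 were both higher, at 53.2, 14.8 and 22.7 (log2 1.85) and 46.1, 14.6 and 15.6 (log2 1.66). Gch1, which makes the cofactor of the monoamine-forming hydroxylases, was at 69.6, 22.2 and 22.7 (log2 1.65), and its feedback regulator Gchfr differed by 1.40.

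High and steady gene classes showed small, even shifts whose sign depends on the scaling. Cytosolic ribosomal proteins had a median of -0.18 with 4 of 81 above 0, which turned positive with quantile (0.06) or spike-in scaling (0.17) and in the deposited table (0.05), and with lamotrigine it was -0.19. Respiratory chain subunits had -0.20 with 6 of 94 above 0, or 0.15 with spike-in scaling, and -0.19 with lamotrigine. Splicing factors had -0.19 over 128 genes, or 0.16 with spike-in scaling, the lowest being Rbfox2, a splicing regulator of neurons, at 324, 640.0 and 500.0 (log2 -0.98). Among these 303 genes Cox8b was the only 1 at least 2-fold apart.

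Stress genes gave no common direction. Hspa1a, the inducible HSP70, was at 109.7, 37.7 and 40.8 (log2 1.54), and Hspb1, a small heat shock protein, at 1300.0, 623 and 625 (log2 1.06). Dnajc12, a co-chaperone, was at 285, 113 and 115 (log2 1.33). These were the 3 of 82 heat shock and co-chaperone genes at least 2-fold higher, where 2.09% of all genes were. Derl3, of the degradation pathway of the endoplasmic reticulum, was at 29.3, 11.2 and 16.8 (log2 1.38). In the integrated stress response Trib3, a pseudokinase, was at 37.8, 92.1 and 34.2 (log2 -1.28), and Chac1, a glutathione-degrading enzyme, at 213, 382 and 199 (log2 -0.84). Both were lower still with lamotrigine, -1.43 and -0.94, and against the lamotrigine array Trib3 turned to 0.15. Atf4, a known activator of both genes, was at 5569, 8469 and 6291 (log2 -0.60).

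Outside the lists lay 169 of the 300 genes that were higher and 118 of the 203 that were lower. Among the former, Mrap2, a partner of melanocortin receptors, was at 87.2, 17.4 and 21.7 (log2 2.32), and Stac2, an adaptor of calcium channels, at 269.9, 55.1 and 38.9 (log2 2.29). Card10, a scaffold of NF-kappa B signalling, was at 102, 20.8 and 24.6 (log2 2.29), Epor, the erythropoietin receptor, at 71.1, 17.9 and 16.3 (log2 1.99), and Pth1r, the parathyroid hormone receptor, at 271, 73.5 and 74.8 (log2 1.88). Several of these are receptors or adaptors known from other organs. Epop, a Polycomb-associated protein, was at 978, 292 and 263 (log2 1.74), and Ecel1, a protease of neurons, at 551, 172 and 187 (log2 1.68). Alox5, which makes leukotrienes, was at 20.7, 5.70 and 3.13 (log2 1.86), and Serinc2 at 157, 42.4 and 39.1 (log2 1.89), with 1.90 by another probe. Ppm1j, a phosphatase, was detected with valproate only and had the highest bound (at least 11.2-fold higher), and the endothelial receptor Flt1 was at least 5.16-fold higher by the bound.

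Among those that were lower, Glycam1, a mucin-like ligand, was at 67.0, 316 and 322 (log2 -2.24), Fndc9 at 18.0, 81.6 and 83.0 (log2 -2.18), and Hkdc1, a hexokinase, at 11.5, 40.2 and 38.9 (log2 -1.81). Chil1, a chitinase-like protein of reactive astrocytes, was at 9.03, 31.6 and 31.1 (log2 -1.81), and Lcat, which esterifies cholesterol on lipoproteins, at 24.6, 68.5 and 67.9 (log2 -1.48). Zmynd12 and Fam166b differed by -1.60 and -1.95. Igfbp6, which binds insulin-like growth factor 2, was at 88.8, 248.6 and 178 (log2 -1.48), and Msln, mesothelin, at 21.8, 72.2 and 72.5 (log2 -1.73). Of genes detected with DMSO only, Styxl1, a pseudophosphatase, was at least 5.29-fold lower by the bound and Angpt2, a vessel growth factor, at least 3.29-fold.

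By position, chromosome 17 held 35 of its 716 measured genes at least 2-fold higher (4.89%, against 2.09% of all genes), and 15 of the 35 carried H2 symbols, which is the MHC region. Its median of -0.09 was close to that of all genes. Probes for intergenic RNA, which carry no gene, were at least 2-fold higher in 46 of 3990 cases (1.15%) and lower in 60 (1.5%). Bounds add genes that crossed the detection limit: 749 genes were detected with valproate only, 109 of them (14.6%) at least 2-fold higher by the bound, and 160 with DMSO only, 51 (31.9%) at least 2-fold lower. The arrays differed in detection: 52.9% of spots were well above background with valproate, 49.6% with DMSO and 51.6% with lamotrigine. The detection floor was 3.88 with valproate and 5.29 with DMSO. The part of this in the 749 and 160 genes was not tested. Of the 69 genes at least 2-fold apart that had another detected probe, in 65 all other probes gave the same sign, and in 43 another probe was also at least 2-fold apart.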

How the data were processed

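RNA of 3 cultures was measured on Agilent 1-colour arrays (Cy3), 1 array per treatment and all 3 on 1 slide. The deposited intensities are processed signals, background-subtracted and detrended within each array and not normalized between arrays, from Feature Extraction 10.7.1.1, per the file headers. The authors' deposited value table holds linear intensities that, by its name and its nearly equal sorted columns, were quantile-normalized across the 3 arrays. It served only as an alternative, and the software behind it is not given in the sources used here. RNA was taken up in TRIzol and labelled with a low-input kit, per the labels' protocols.

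Of 62976 spots per array, 59305 were not controls. They made up 55681 probes, of which 55680 kept a spot once outlier-flagged spots were left out, and the spots of a probe were averaged. The probes were matched to RefSeq genes by accession (27235), symbol (3581) or older symbol (565), and 24300 had no gene. Signals were divided by each array's 75th percentile. Where a gene had several probes, the brightest on average across the 3 arrays stands for it. Genes detected on 1 array only have a bound: the brighter value over the higher of the dim probe's own signal and the array's lowest signal among probes well above background.

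Named genes are the 40 highest and 40 lowest, the 12 highest bounds in each direction, and list members at least 2-fold apart or among the 4 farthest from 0 in each direction of their list. Genes named for their known role beyond these, such as B2m, Mcidas, Mcm2, Fos, Bst2 and the homeobox genes given by bounds, were chosen after their values were seen. The comparison's members and the lists were chosen with earlier results of these data known. The alternatives were quantile, spike-in and normexp processing (limma 3.58.1, R 4.3.3), the deposited table, all genes kept whatever their detection, averages of a gene's detected probes, the lamotrigine array as control, and thresholds of 1.5-fold and 3-fold. Results for some genes are not reported here. The calculation, run in Python 3.11.15 with numpy 2.4.6 and pandas 2.3.3, was tested on simulated data. With 1 array per treatment the number of arrays limits the precision.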

Additional observations from a re-analysis of the deposited data

Results flagged for a closer look

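The arrays also carry probes for intergenic RNA that have no gene and enter none of the comparisons by gene above. Both arrays detected 3990 such probes. Valproate gave a signal at least 2-fold higher in 46 of them (1.15%) and at least 2-fold lower in 60 (1.5%). They are given because they are a signal in data that the comparison by gene does not use.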

How the results depend on the processing

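The counts of 300 genes higher and 203 lower became 896 and 854 at a 1.5-fold threshold and 75 and 34 at 3-fold. With spike-in scaling they were 744 and 77, with normexp background correction 111 and 80, and without the detection filter 862 and 1095, where 44.0% of these genes were higher. The quantile (302 and 195), deposited-table (305 and 189) and mean-of-probes (303 and 194) counts stayed within 1.5 times of the 300 and 203, and so did those against the lamotrigine array (300 and 246), which kept 201 of the 300 and 139 of the 203 genes. Normexp background correction kept 108 of the 300 and 80 of the 203. Of the 252 genes at least 2-fold apart that the naming rule took, 125 stayed so with normexp. With spike-in scaling the medians turned positive for ETS factors (0.090), tubulins and related proteins (0.10), olfactory, vomeronasal and taste receptors (0.046), pan-neuronal markers (0.070) and fibroblast and meningeal markers (0.045). Without the detection filter the medians of aquaporins (-0.10), MHC class II (-0.20) and germline genes (-0.078) turned negative. Against the lamotrigine array those of ETS factors (0.094), aquaporins (-0.41) and MHC class II (-0.085) turned, as did Trib3 (0.15). The spike-in values follow from the constant it adds; the cause of the other turns was not tested. No paired analysis was possible because each treatment has 1 array. Signals near background limit the low genes most.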
